A study of Mus musculus with 18 samples.

Results

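To examine how the prostate of ELAC2A537T mice changed with age, 30-week-old animals were compared with 10-week-old animals of the same line. These mice carry threonine in place of alanine at one residue of ELAC2, on both alleles and in every tissue, as a CRISPR-Cas9 knock-in that models a human Ala-to-Thr variant. The comparison used the 3 A537T libraries at 30 weeks, in the columns headed 7AF, 8AF and 9AF, and the 3 A537T libraries at 10 weeks, in the columns 16AF, 17AF and 18AF, which are 6 of the 18 samples of the series. The members of the comparison were the 15167 of 55469 listed genes with a mean of at least 10 normalized counts over these 6 libraries. A normalized count is a number of reads divided by a factor that brings the 6 libraries to one scale. All mice were males on the C56NL/6N background, untreated, and gave total RNA of the ventral and lateral lobes. The only groups brought in beside them were the 3 wild-type (WT, ELAC2+/+) libraries of each age. The columns give no animal numbers, so the libraries of one age are treated as separate samples and the p-values measure the spread between them. The 2 ages were also deposited in separate tables, so that a difference between tables and a difference between ages cannot be told apart within the A537T mice alone.

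ELAC2 is the endonuclease that removes the trailer from the end of tRNA precursors in the nucleus and in mitochondria, where the tRNAs punctuate the polycistronic transcripts. The mouse prostate consists of paired lobes with secretory luminal cells over a thin layer of basal cells, wrapped in smooth muscle and matrix, and each lobe secretes its own set of proteins under androgen control. From puberty to adulthood the gland stops growing, the stroma becomes quiescent and the secretion matures, and with age lymphocytes and plasma cells can gather in it.

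The 6 libraries held between 7779419 and 9110374 recovered reads and differed in the tissue they contained. Genes of skeletal muscle, a tissue that lies around the urethra and pelvic floor, took 4.56%, 3.38% and 1.62% at 10 weeks and 0.0453%, 0.0128% and 0.0565% at 30 weeks in the order of the columns above. Genes of the seminal vesicle, a neighbouring gland that had been dissected away, took 0.201%, 0.144% and 0.0462% at 10 weeks and 7.25%, 0.000171% and 9.18% at 30 weeks. Libraries 7AF and 9AF stood apart from 8AF, in which Svs2, a main protein of seminal vesicle fluid, had 2.79 normalized counts against 372400 and 481518. Tgm4 and 9530053A07Rik, listed as genes of the other lobes, together took 3.71%, 4.11% and 5.60% at 10 weeks and 0.125%, 0.312% and 0.0549% at 30 weeks. Urothelial and squamous genes took 0.0128%, 0.0422% and 0.11% at 10 weeks and 0.0105%, 0.0165% and 0.00769% at 30 weeks, so that 17AF and 18AF were higher than the rest. Of the 12 seminal vesicle genes none was called between the ages (median 2.16 on the log2 scale), but 10 were called higher without 8AF (median 6.32) and 5 of 10 tested were called lower without both 7AF and 9AF (median -6.17). Of the 11 urothelial and squamous genes, a list drawn up after values were seen, 4 fell (median -4.87), between 0 (without 7AF or 17AF) and 9 (without 16AF) with 1 library left out. Exact permutation tests of 3 against 3 libraries cannot go below p = 0.1, which was reached for skeletal muscle, the other lobes and adipocytes, while p was 0.4 for the seminal vesicle and 0.2 for the urothelial genes. Sbp and Spink1, which encode the spermine-binding protein of the ventral lobe and a secreted protease inhibitor, were high in every library, with 757100, 636572 and 499759 normalized counts at 10 weeks and 452840, 929294 and 267890 at 30 weeks for Sbp. The WT libraries differed in their tissue too. At 10 weeks skeletal muscle genes took 4.08% to 13.2% of their reads and seminal vesicle genes 0.000798% to 4.46%. At 30 weeks these shares were 0.0169% to 0.0768% and 0.000426% to 0.000820%. The part of this in the WT age changes given below was not tested. Whether fewer cells of a type or less RNA per cell lowered a value cannot be told apart in these bulk samples.

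**Figure D1:**
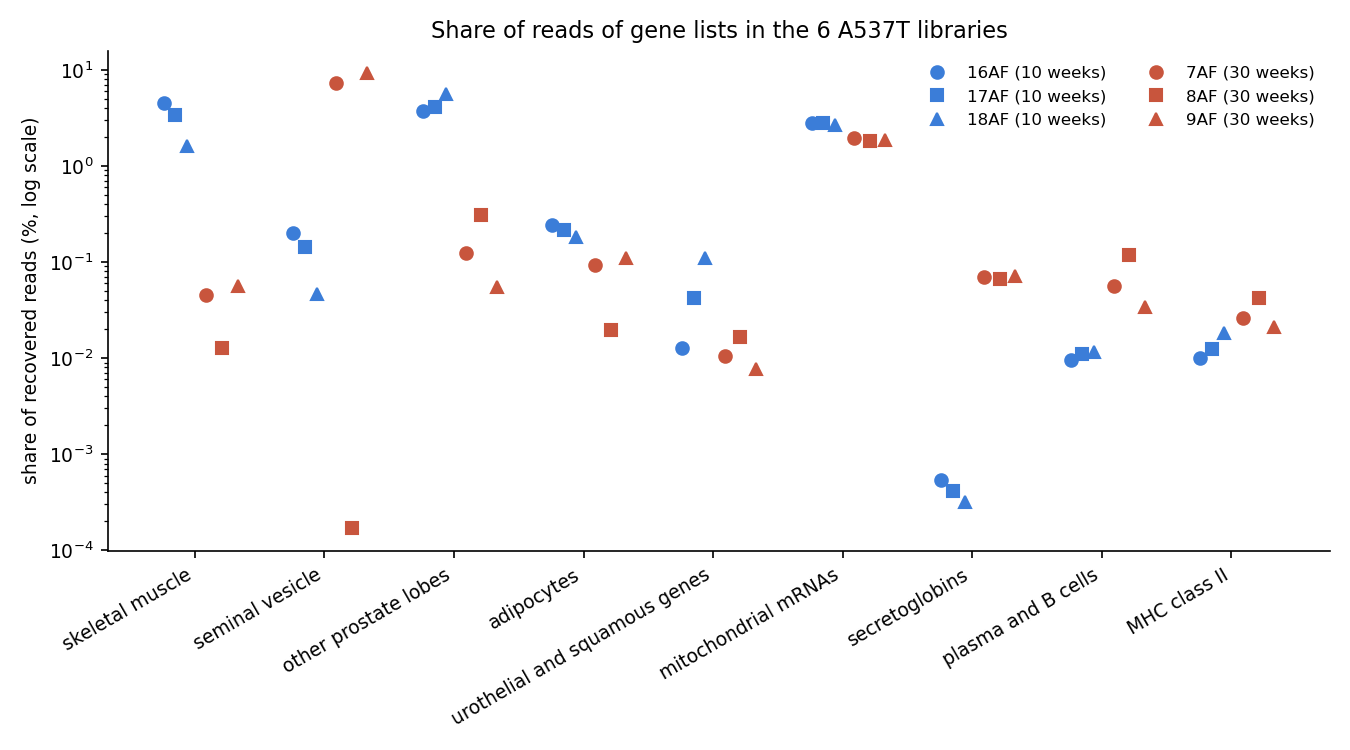
Share of the recovered reads of each library (vertical axis, percent, log scale) taken by 9 gene lists (horizontal axis), with 10-week libraries in blue and 30-week libraries in red and 1 point per library. Skeletal muscle, the other lobes and adipocyte genes lie lower at 30 weeks, mitochondrial mRNAs also lie lower, secretoglobins, plasma and B cell genes and MHC class II lie higher, and the seminal vesicle share splits 7AF and 9AF from 8AF.

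Between 10 and 30 weeks, 204 genes rose and 577 fell among the 15167 tested (limma, Benjamini-Hochberg adjusted p under 0.05), which is 5.15% of all genes, 1.35% for higher and 3.80% for lower. The groups did not overlap for any of the 781, and they did not overlap for 27.4% of all genes tested. The median difference over all genes was 0.0064 on the log2 scale. For 57 of the 781 the scaling of the gene differed by more than 0.2 on the log2 scale between the 2 tables that hold the same WT libraries, in either age. A difference of more than 2-fold was fitted for 102 of the genes that rose and 463 of those that fell. The calls depended on single libraries: the number ranged from 179 without 17AF to 1718 without 8AF, was 288 without 7AF, and was 891 when 7AF and 9AF were both left out, with 110 higher and 781 lower. Of 100 called genes followed through the alternatives, 27 kept their call in every alternative analysis in which they were tested, which was all 19 for 22 of them and 17 or 18 for Scgb2b12, Adam7, Atp2a1, Myh4 and Xirp2, whereas 59 of the 100 lost it without at least 1 library and none of the 100 changed direction in any of them. The 27 were Mug1, Adam7, Nxpe2, Nxpe4, Scgb1b20, Scgb2b7, Scgb2b12, Scgb2b20, Igkc, Jchain, Irf9, Ly6e, Mpeg1 and Tef, which rose, and Nlrp10, Col1a1, Creld2, Cxcl14, Fos, H19, Rian, Hba-a1, Hbb-bs, Aldoa, Atp2a1, Myh4 and Xirp2, which fell.

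The largest increases included genes of secretion. Mug1, which encodes murinoglobulin, a secreted protease inhibitor of the alpha-macroglobulin family, (GRCm38.p6 chr6:121838541-121889057) had 25.4, 27.5 and 13.1 normalized counts at 10 weeks and 3421, 2863 and 3368 at 30 weeks (log2 difference 7.19 ± 0.27 (SE), adjusted p = 8.44e-05). The groups lay far apart, and the 3 libraries of each age were close to each other whether or not they held seminal vesicle RNA. Adam7, a gene of the ADAM family known from the epididymis, had 1.06, 0.949 and 0 normalized counts at 10 weeks and 167, 102 and 185 at 30 weeks (log2 difference 6.54 ± 0.45 (SE), adjusted p = 5.84e-04), and was nearly silent in the younger mice. Acpp, which encodes prostatic acid phosphatase, had 47.7, 33.2 and 64.4 normalized counts at 10 weeks and 134, 139.6 and 156 at 30 weeks (log2 difference 1.59 ± 0.25 (SE), adjusted p = 0.017). The related genes Nxpe2 and Nxpe4, chosen after their values were seen, had log2 differences of 2.95 ± 0.27 (adjusted p = 0.002) and 2.91 ± 0.29 (adjusted p = 0.003). Cyp2j13, a cytochrome P450 gene, had 6.35, 0.949 and 0 normalized counts at 10 weeks and 237, 26.1 and 308 at 30 weeks (log2 difference 5.69 ± 1.09 (SE), adjusted p = 0.032) and was high in the libraries with seminal vesicle RNA. The calls of Acpp and Cyp2j13 were each lost in 5 alternatives. In WT mice Mug1, Adam7, Acpp, Nxpe2 and Nxpe4 also rose, Mug1 by 8.42 ± 0.51 (SE, adjusted p = 1.40e-05) and Adam7 by 8.33 ± 0.45 (SE, adjusted p = 1.40e-05) on the log2 scale.

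Secretoglobins, small secreted proteins of the androgen-binding family that pair into dimers, were the family with the steepest rise. The family was assembled after values had been seen, and 7 of its 40 listed genes passed the filter on low values, so the count says nothing about the rest. All 7 were called higher, against 1.35% of all genes. The family held 45, 38 and 25 reads at 10 weeks, so its members passed mainly through the older mice. As the filter favoured a rise, the 2 numbers cannot be weighed against each other. Scgb2b17 had 31.8, 0 and 5.03 normalized counts at 10 weeks and 2631, 2597 and 2712 at 30 weeks (log2 difference 8.83 ± 1.1 (SE), adjusted p = 0.007), and Scgb2b15 had 0, 23.7 and 13.1 normalized counts at 10 weeks and 2048, 2077 and 2245 at 30 weeks (log2 difference 8.24 ± 1.08 (SE), adjusted p = 0.008). Both were even in the 3 older libraries, while in the younger ones 16AF had reads of Scgb2b17 only and 17AF of Scgb2b15 only. Scgb2b20 had 1.06, 0.949 and 0 normalized counts at 10 weeks and 494, 132 and 673 at 30 weeks (log2 difference 7.80 ± 0.64 (SE), adjusted p = 0.001) and its partner subunit gene Scgb1b20 had 1.06, 0 and 2.01 normalized counts at 10 weeks and 257, 92.1 and 323 at 30 weeks (log2 difference 6.75 ± 0.61 (SE), adjusted p = 0.002), and for both of these 8AF was the lowest of the older libraries. Scgb2b7 had 4.24, 5.70 and 1.01 normalized counts at 10 weeks and 324, 474 and 374 at 30 weeks, Scgb2b27 had 9.53, 4.75 and 2.01 normalized counts at 10 weeks and 50.7, 20.5 and 41.7 at 30 weeks, and Scgb2b12 had no read in any young library and 44.8, 30.7 and 69.4 in the older ones, which makes it at least 16-fold higher against a floor of 3 reads per library. Together the family took 0.000536%, 0.000417% and 0.000321% at 10 weeks and 0.0691%, 0.0668% and 0.0711% at 30 weeks. Leaving out 1 library at a time gave between 6 (without 7AF, 9AF, 17AF or 18AF) and 7 (without 8AF or 16AF) called members, and 3 were called without both 7AF and 9AF. In WT the family rose as well, with a median of 9.54 against 6.65 in A537T in the same fit of 12 libraries.

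The 7 genes lie on chromosome 7, and promoters are shown because copies of this family, 1 of them near 0 at both ages, share theirs. RefSeq promoters of GRCm38.p6, from 250 bases before to 50 bases after the gene start, were given for Scgb2b7, Scgb2b12, Scgb2b15, Scgb2b17, Scgb2b20 and Scgb2b27. The windows of Scgb2b17 (chr7:33056503-33056802, minus strand), Scgb2b15 (chr7:32829604-32829903, minus strand) and Scgb2b10 (chr7:32093903-32094202, minus strand) had the same 300 bases. The shared window and that of Scgb2b12 (chr7:32327196-32327495, minus strand) read as follows, with the letters TATAAA in capitals, which begin at offsets of -35 and -31 from the gene start:
Scgb2b17: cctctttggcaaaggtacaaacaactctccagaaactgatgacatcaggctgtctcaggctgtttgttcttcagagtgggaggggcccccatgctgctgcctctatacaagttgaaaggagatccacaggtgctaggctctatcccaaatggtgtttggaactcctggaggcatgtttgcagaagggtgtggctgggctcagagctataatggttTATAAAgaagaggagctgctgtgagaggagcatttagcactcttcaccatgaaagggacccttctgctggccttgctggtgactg
Scgb2b12: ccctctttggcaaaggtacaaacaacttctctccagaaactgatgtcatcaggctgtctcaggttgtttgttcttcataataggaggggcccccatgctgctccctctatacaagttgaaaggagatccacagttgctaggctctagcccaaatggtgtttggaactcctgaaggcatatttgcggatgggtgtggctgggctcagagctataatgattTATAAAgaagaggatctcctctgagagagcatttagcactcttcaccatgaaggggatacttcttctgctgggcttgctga
The letters TATAAA on the gene's strand were present in the windows of 9.77% of 27025 genes, and those of Scgb2b7, Scgb2b20 and Scgb2b27 did not hold them. Scgb2b10, whose window is the same, had no read at 10 weeks and 3.90, 0 and 1.07 normalized counts at 30 weeks, close to the floor. How reads were split between Scgb2b10, Scgb2b15 and Scgb2b17 was not tested.

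A second set of genes fell, led by Tgm4 and 9530053A07Rik. Tgm4, the transglutaminase that cross-links seminal proteins in the copulatory plug, (chr9:123034726-123067561) had 36528, 43706 and 52977 normalized counts at 10 weeks and 979, 2469 and 617 at 30 weeks (log2 difference -5.26 ± 0.47 (SE), adjusted p = 0.002). 9530053A07Rik, a gene for a large secreted protein, had 293700, 312010 and 385534 normalized counts at 10 weeks and 9647, 22955 and 4377 at 30 weeks (log2 difference -5.05 ± 0.56 (SE), adjusted p = 0.004). All 3 younger libraries were more than 10-fold above every older one for both. C1rb, a complement protease gene expressed in the prostate, had 2070, 2313 and 3127 normalized counts at 10 weeks and 85.7, 167 and 38.5 at 30 weeks (log2 difference -4.89 ± 0.48 (SE), adjusted p = 0.003), and Fgl1, a fibrinogen-like secreted protein, had 506, 574 and 667 normalized counts at 10 weeks and 7.79, 9.30 and 9.61 at 30 weeks (log2 difference -5.88 ± 0.18 (SE), adjusted p = 4.43e-05). Pbsn, which encodes probasin, the androgen-dependent secretory protein of the lateral and dorsal lobes, had 20010, 20018 and 19027 normalized counts at 10 weeks and 3284, 7962 and 1451 at 30 weeks (log2 difference -2.55 ± 0.54 (SE), adjusted p = 0.045), and this call was lost in 9 alternatives. Nlrp10, a member of the NLR family, (chr7:108921852-108930178) had 723, 777 and 925 normalized counts at 10 weeks and 1.95, 4.65 and 4.27 at 30 weeks (log2 difference -7.50 ± 0.29 (SE), adjusted p = 8.44e-05). A630095E13Rik, an unnamed gene, fell as well (log2 difference -8.10 ± 1.44 (SE), adjusted p = 0.025), as did Gsdma, a gasdermin gene, and Mmp7, an epithelial metalloproteinase, which were picked after their values had been seen, with log2 differences of -6.60 ± 0.50 (adjusted p = 9.41e-04) and -3.43 ± 0.30 (adjusted p = 0.002).

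None of these 9 genes was called in WT mice, where their differences lay between 0.41 and 2.19 on the log2 scale. The WT libraries varied widely in these genes: on the scale of the 12 libraries, the younger WT mice had 49268, 3287 and 19.8 normalized counts of Tgm4 and the older ones 44.9, 63363 and 43331. The difference between the age changes was not called for Tgm4, at -7.01 ± 4.01 (SE, adjusted p = 0.52), nor for Nlrp10, at -8.57 ± 2.67 (SE, adjusted p = 0.27). Across the list of 25 prostate secretory genes, 24 were tested. Of these 2 rose (Mug1 and Acpp), against 1.35% of all genes, and 4 fell (Fgl1, C1rb, Pbsn and C1s2), against 3.80%. The median was 0.30, with medians from -0.03 to 0.78 over the alternatives. Of the 22 tested androgen receptor targets 1 rose (Acpp), against 1.35% of all genes, and 1 fell (Pbsn), near the 3.80% of all genes. Their median was 0.04 and was below 0 in some alternatives. The share of Tgm4 and 9530053A07Rik moved with age, and its part in the other differences was not tested.

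Immunoglobulin transcripts rose. Igkc, the constant region of the kappa light chain (chr6:70726435-70726966), had 60.4, 76.9 and 73.4 normalized counts at 10 weeks and 1071, 2197 and 647 at 30 weeks (log2 difference 4.02 ± 0.40 (SE), adjusted p = 0.003). Jchain, which joins secreted IgM and IgA into polymers, had 15.9, 29.4 and 28.2 normalized counts at 10 weeks and 321, 581 and 213 at 30 weeks (log2 difference 3.79 ± 0.40 (SE), adjusted p = 0.003). Ighm, the heavy chain of IgM, had 123, 189.9 and 266 normalized counts at 10 weeks and 2395, 5602 and 1175 at 30 weeks (log2 difference 3.76 ± 0.55 (SE), adjusted p = 0.013), and its call was lost without 7AF and without 17AF. In these 3 genes 8AF, the library without seminal vesicle RNA, was the highest and 9AF the lowest of the older libraries. The IgG heavy chains were ordered differently: Ighg2c had no read at 10 weeks and 295, 44.7 and 389.9 normalized counts at 30 weeks, at least 80.7-fold higher, with 8AF the lowest, whereas Ighg3 had 1.06, 0 and 0 normalized counts at 10 weeks and 39.0, 43.7 and 38.5 at 30 weeks (log2 difference 5.02 ± 0.55 (SE), adjusted p = 0.004) and was even over the 3.

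Of the 24 plasma and B cell genes 14 passed the filter on low values and 11 of these rose, against 1.35% of all genes, with a median of 3.91 on the log2 scale. Of the 14, 13 were higher and Derl3 was the 1 lower, without a call (log2 difference -1.02). The 11 that rose were Ighg2c, Cr2, Ighg3, Iglc2, Iglc1, Iglc3, Igkc, Jchain, Ighm, Pou2af1 and Igha. Since members that are silent at 10 weeks pass the filter only through the older mice, the count describes the members that passed and not the list. Their genes took 0.00948%, 0.0111% and 0.0116% at 10 weeks and 0.0569%, 0.117% and 0.0342% at 30 weeks. Leaving out 1 library at a time left between 6 (without 7AF) and 9 (without 8AF, 16AF or 18AF) called, and 7 were called without both 7AF and 9AF. Cr2, a complement receptor of B cells, had no read at 10 weeks and 105, 11.2 and 134 at 30 weeks, and was high in the libraries with seminal vesicle RNA. The variable segments were listed after values were seen, and 14 of 346 passed the filter. The whole list held 60, 68 and 73 reads at 10 weeks, so its members passed mainly through the older mice. Of the 14, 6 rose, with 2 without 7AF and 4 without 17AF. As the filter favoured a rise, their number cannot be weighed against the 1.35% of all genes. Igkv1-135 went from no read to 78.9, 149 and 41.7 normalized counts, which is at least 29.8-fold. In WT the median of the plasma and B cell list was 1.71 against 3.90 in A537T, and the smallest adjusted p for a difference between them was 0.17.

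T cell genes were mostly too low to test. Of 23 listed genes 4 passed the filter, none rose, and Thy1, which stromal cells and nerves also express, fell with 108, 107 and 105 normalized counts at 10 weeks and 67.2, 54.0 and 62.0 at 30 weeks (log2 difference -0.80 ± 0.16 (SE), adjusted p = 0.036). The list took 0.00189%, 0.00258% and 0.00230% at 10 weeks and 0.00257%, 0.00268% and 0.00228% at 30 weeks, and the groups overlapped (exact permutation p = 0.5). With a minimum mean of 1, 22 of its genes were tested, with a median of 0.96 and 1 called in each direction.

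Genes of antigen presentation and of the interferon response were higher at 30 weeks. MHC class II molecules present peptides to helper T cells and are made by B cells, macrophages and dendritic cells. All 7 class II genes that were tested, of 10 listed, were higher, against 50.7% of all genes, with a median of 1.11, and 2 were called, against 1.35%. H2-Aa had 183, 221 and 293 normalized counts at 10 weeks and 553, 794 and 413 at 30 weeks (log2 difference 1.31 ± 0.27 (SE), adjusted p = 0.040) and H2-Eb1 had 107, 158 and 217 normalized counts at 10 weeks and 332, 530.3 and 382 at 30 weeks (log2 difference 1.39 ± 0.29 (SE), adjusted p = 0.039). The invariant chain Cd74 had 354, 459 and 494 normalized counts at 10 weeks and 849, 1359 and 699 at 30 weeks and missed the threshold (log2 difference 1.11 ± 0.26 (SE), adjusted p = 0.058). 8AF was the highest library for each of the 3, as it was for Ighm and Igkc. Leaving out 1 library at a time left between 0 (without 7AF, 16AF or 17AF) and 3 (without 8AF) called. In WT the list had a median of 0.07 and no call.

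MHC class I molecules present peptides cut by the immunoproteasome to cytotoxic T cells. Of 19 genes of the class I pathway 5 rose, against 1.35% of all genes, and none fell, with 16 above 0, against 50.7% of all genes, and a median of 0.59. Nlrc5, the transactivator of class I genes, had 50.8, 52.2 and 65.4 normalized counts at 10 weeks and 168, 185 and 156 at 30 weeks (log2 difference 1.58 ± 0.17 (SE), adjusted p = 0.003). H2-K1, a classical class I heavy chain, had 1400, 1543 and 1716 normalized counts at 10 weeks and 2941, 2745 and 3118 at 30 weeks (log2 difference 0.92 ± 0.12 (SE), adjusted p = 0.007), and Psmb8, a catalytic subunit of the immunoproteasome, had 54.0, 52.2 and 59.4 normalized counts at 10 weeks and 128, 123 and 95.1 at 30 weeks (log2 difference 1.04 ± 0.18 (SE), adjusted p = 0.023). The groups were apart for all 3. H2-D1 and H2-Q6 had log2 differences of 0.59 ± 0.10 (adjusted p = 0.021) and 1.31 ± 0.25 (adjusted p = 0.032), and reads of these class I genes can be shared between near-identical copies. B2m, the light chain, was not called with 4904, 4699 and 3820 normalized counts at 10 weeks and 10192, 3904 and 12804 at 30 weeks and was high in the libraries with seminal vesicle RNA (log2 difference 0.84 ± 0.41 (SE), adjusted p = 0.3). The number of called members was between 1 (without 17AF) and 7 (without 8AF) with 1 library left out, and 1 without both 7AF and 9AF.

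Interferons act through a complex of STAT proteins and Irf9 that binds response elements before their target genes. All 53 interferon response genes were tested. Of these 8 rose, against 1.35% of all genes, and none fell, against 3.80%. Of the 53, 49 were above 0, against 50.7% of all genes, with a median of 0.62 on the log2 scale. Irf9, the DNA-binding subunit of that complex, had 208, 197 and 163 normalized counts at 10 weeks and 392, 413 and 392 at 30 weeks (log2 difference 1.08 ± 0.13 (SE), adjusted p = 0.006). Ly6e, a membrane protein induced by interferon, had 1707, 1442 and 1406 normalized counts at 10 weeks and 3903, 3537 and 3692 at 30 weeks (log2 difference 1.29 ± 0.11 (SE), adjusted p = 0.002). All 3 older libraries lay above every younger one for both genes. Ifit3 had 38.1, 45.6 and 57.3 normalized counts at 10 weeks and 85.7, 92.1 and 103 at 30 weeks (log2 difference 0.99 ± 0.21 (SE), adjusted p = 0.043). Ifit1, which encodes a protein that binds foreign RNA, had 64.6, 51.3 and 60.4 normalized counts at 10 weeks and 115, 131 and 94.0 at 30 weeks (log2 difference 0.93 ± 0.19 (SE), adjusted p = 0.040). Parp14, Trim30a, Ddx58 and Ifit2 rose, with log2 differences between 0.69 and 0.85. The called members numbered between 2 (without 7AF, 16AF or 17AF) and 9 (without 8AF) with 1 library left out and 6, with 1 member lower, without both 7AF and 9AF, while the median stayed between 0.49 and 0.79 in every alternative. In WT, where 49.8% of all genes were above 0, the list had a median of -0.24. There 3 genes were called in each direction, against 3.31% of all genes called higher and 6.66% called lower. No gene of the list was called for a difference between the age changes of A537T and WT (smallest adjusted p = 0.13, for 52 genes in the fit of 12 libraries).

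The promoters of Ifit1 and Ifit3 are shown because both genes rose and both carry the interferon-stimulated response element, searched on both strands as GAAA, any 2 bases and GAAA again. The motif was in the windows of 23 of the 38 interferon response genes that have a RefSeq promoter (60.5%) and in 3.99% of 27025 genes. Among the 6 of the 8 called genes with a promoter in the table, 4 held it, namely Trim30a, Ifit1, Ddx58 and Ifit3. The list was drawn up from known interferon targets, so this is a property of the list and not of the age change. Motif matches are in capitals, and the windows are those of Ifit1 at chr19:34640639-34640938, plus strand, and Ifit3 at chr19:34583279-34583578, plus strand, both of GRCm38.p6:
Ifit1: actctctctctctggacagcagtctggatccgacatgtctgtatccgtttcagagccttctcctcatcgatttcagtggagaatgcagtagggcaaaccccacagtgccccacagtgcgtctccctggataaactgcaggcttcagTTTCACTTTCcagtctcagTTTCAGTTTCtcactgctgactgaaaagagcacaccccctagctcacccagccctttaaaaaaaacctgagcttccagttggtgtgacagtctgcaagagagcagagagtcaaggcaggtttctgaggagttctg
Ifit3: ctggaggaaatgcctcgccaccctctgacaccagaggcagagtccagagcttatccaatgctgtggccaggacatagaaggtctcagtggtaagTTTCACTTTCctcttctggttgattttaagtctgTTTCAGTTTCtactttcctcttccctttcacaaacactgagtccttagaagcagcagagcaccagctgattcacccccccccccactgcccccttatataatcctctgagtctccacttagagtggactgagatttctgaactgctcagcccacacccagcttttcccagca
The matches begin at offsets of -104 and -85 from the start of Ifit1, and of -156 and -122 from that of Ifit3. A match in these letters says nothing about whether a factor was bound there.

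Most macrophage genes were above 0, and few were called. Of 22 tested members 19 were higher and 3 lower, while 50.7% of all genes were above 0. The median was 0.60, with 0.39 without 8AF and 1.03 without both 7AF and 9AF. The list's share of reads overlapped between the ages (exact permutation p = 0.2). Called members were 2 higher, against 1.35% of all genes, and 1 lower, against 3.80%. In WT the list had a median of -0.29. The difference between the age changes was above 0 for all 22, with none called (limma, smallest adjusted p = 0.18). Mpeg1, a pore-forming protein of phagocytes, had 104, 84.5 and 109 normalized counts at 10 weeks and 287, 259 and 300.2 at 30 weeks (log2 difference 1.51 ± 0.15 (SE), adjusted p = 0.003), and Ctss, the lysosomal protease that trims the invariant chain, had 81.5, 98.7 and 114 normalized counts at 10 weeks and 226, 214 and 189 at 30 weeks (log2 difference 1.1 ± 0.17 (SE), adjusted p = 0.014). Cd163, the haemoglobin scavenger receptor of resident macrophages, had 139, 159 and 146 normalized counts at 10 weeks and 67.2, 81.9 and 87.6 at 30 weeks (log2 difference -0.91 ± 0.16 (SE), adjusted p = 0.024). The groups were apart for each, but the calls of Ctss and Cd163 were lost in 3 and 6 of 19 alternatives. In WT Cd163 fell as well, with a log2 difference of -0.94 ± 0.23 (SE, adjusted p = 0.027), while that of Mpeg1 was 0.35 ± 0.18 (SE, adjusted p = 0.26) and that of Ctss 0.08 ± 0.18 (SE, adjusted p = 0.84). Mmp9, a gelatinase made by neutrophils and other cells and picked after its values were seen, had 23.3, 37.0 and 26.2 normalized counts at 10 weeks and 87.7, 145 and 125 at 30 weeks (log2 difference 2.01 ± 0.27 (SE), adjusted p = 0.009). Of the 12 tested chemokines only Cxcl14, a chemokine of epithelium and stroma, was called, with 264, 262 and 268 normalized counts at 10 weeks and 124, 140.5 and 129 at 30 weeks (log2 difference -1.01 ± 0.12 (SE), adjusted p = 0.005). Of 21 complement genes C1rb, C1s2 and C4b fell, against 3.80% of all genes, and none rose, against 1.35%. With 1 library left out between 1 (without 7AF, 9AF, 17AF or 18AF) and 5 (without 8AF) were called lower and none higher. The median of the complement list was -0.16, and 0.016 without both 7AF and 9AF.

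**Figure D2:**
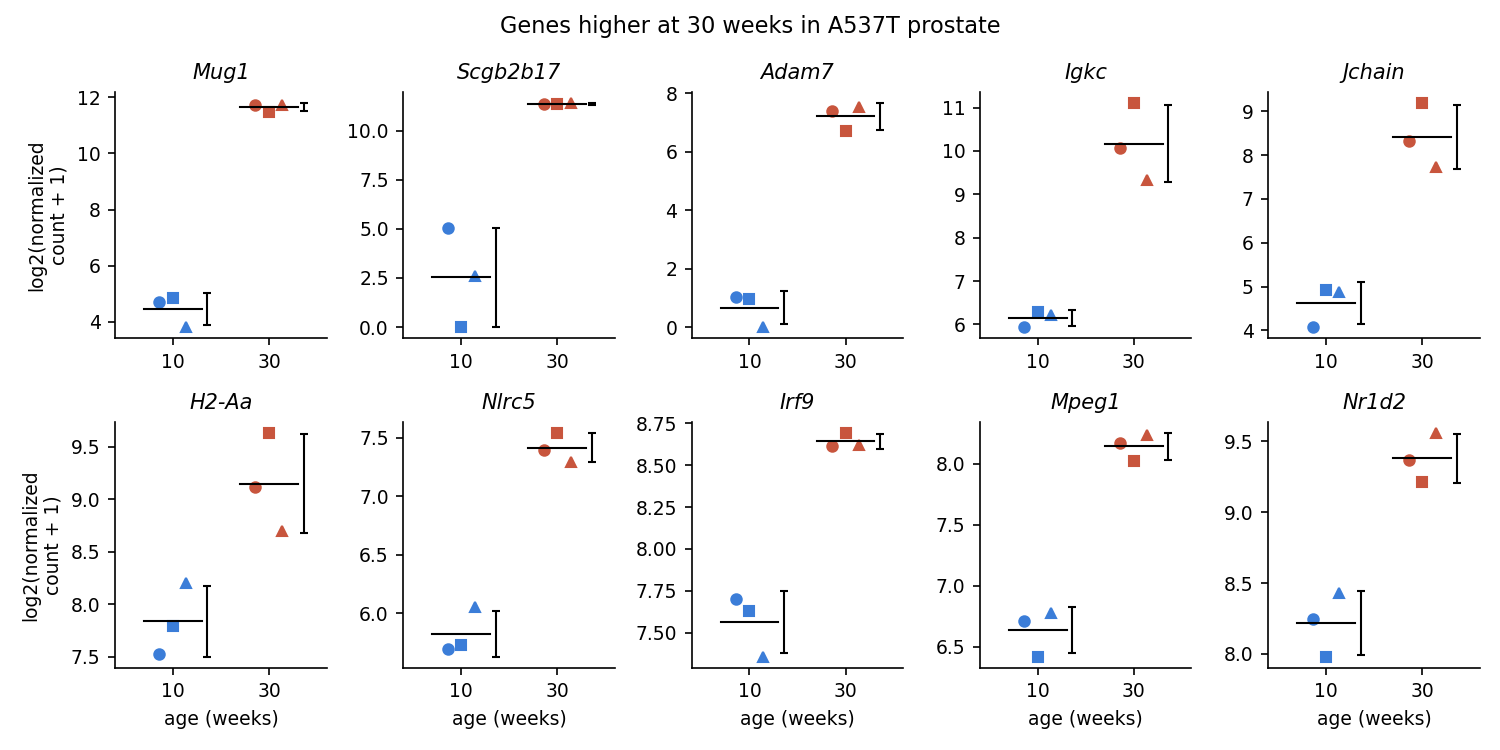
Normalized counts on the log2(count + 1) scale (vertical axes, each panel with its own range) of 10 genes higher at 30 weeks, by age (horizontal axes). Points are single libraries, with the same symbol as in the plot of read shares, lines are means and error bars are 1 SD of 3 libraries. For every gene all 3 older libraries lie above all 3 younger ones.

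Genes of the stroma were lower. Collagens and matrix genes build the fibrous scaffold around the ducts, and 17 of 38 fell while none rose, against 3.80% of all genes called lower, with a median of -1.18 on the log2 scale. Col1a1, a chain of fibrillar type I collagen, (chr11:94936224-94953042) had 1413, 1711 and 2321 normalized counts at 10 weeks and 403, 474 and 449.7 at 30 weeks (log2 difference -2.01 ± 0.19 (SE), adjusted p = 0.002). Col3a1, the type III chain, had 5105, 5420 and 8153 normalized counts at 10 weeks and 2209, 1771 and 2792 at 30 weeks (log2 difference -1.46 ± 0.23 (SE), adjusted p = 0.018), and Col4a6, a basement membrane chain, had 1400, 1697 and 2396 normalized counts at 10 weeks and 398, 228 and 449 at 30 weeks (log2 difference -2.37 ± 0.30 (SE), adjusted p = 0.007). All groups were apart, and 18AF was the highest library for each. The called members numbered between 2 (without 17AF) and 21 (without 8AF or 16AF) with 1 library left out, and 7 without both 7AF and 9AF. In WT the list had a median of -0.90. There 17 genes were called lower, against 6.66% of all genes, and 1 higher, against 3.31%. The log2 difference there was -0.90 ± 0.28 (SE, adjusted p = 0.069) for Col1a1 and -1.47 ± 0.27 (SE, adjusted p = 0.005) for Col3a1. Col4a6 had a WT difference of 1.42 ± 1.23 (SE, adjusted p = 0.53) and, as for Tgm4, its WT libraries varied widely, with 2187, 346 and 78.3 normalized counts at 10 weeks and 137, 3587 and 2325 at 30 weeks.

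Members of other cell types around the epithelium were mostly below 0, and few of them were called. Over all genes 50.7% were above 0, 3.80% were called lower and 1.35% were called higher. The counts called in the endothelial and adipocyte lists are near the share of all genes called lower. Smooth muscle genes had a median of -0.74 with 2 of 20 called, Des with 3213, 4716 and 7674 normalized counts at 10 weeks and 1496, 1067 and 1553 at 30 weeks (log2 difference -1.85 ± 0.31 (SE), adjusted p = 0.021) and Tpm1 with a log2 difference of -1.48 ± 0.25 (adjusted p = 0.020), and both are also genes of skeletal muscle. Neither was called without 7AF or 17AF, and the median was -0.40 without 18AF, -0.43 without 8AF and -1.42 without both 7AF and 9AF. All 23 tested endothelial genes were lower, with a median of -0.66, and Eng, a coreceptor for TGF-beta ligands, was the only one called (log2 difference -0.97 ± 0.17 (SE), adjusted p = 0.022), with none called without 7AF, 16AF or 18AF and a median of -0.41 without 8AF. Adipocyte genes had a median of -1.93, Cd36, a fatty acid transporter, was the only one of 20 called (log2 difference -1.50 ± 0.29 (SE), adjusted p = 0.033), and 16 were called without both 7AF and 9AF (median -5.07) and 12 lower without 8AF (median -0.85). Adipocyte genes took 0.241%, 0.216% and 0.180% at 10 weeks and 0.0927%, 0.0198% and 0.111% at 30 weeks, with 8AF the lowest library. All 14 tested nerve and glia genes were lower, with a median of -1.49 and none called. Without 8AF 4 nerve and glia genes were called (median -0.81), and without both 7AF and 9AF 7 were (median -3.02), while 50.7% of all genes were above 0. The basal keratin Krt15 had 307, 698 and 1351 normalized counts at 10 weeks and 226, 274 and 231 at 30 weeks without a call (log2 difference -1.44 ± 0.48 (SE), adjusted p = 0.15), and of 14 basal genes only Dst, a cytoskeletal linker of hemidesmosomes, fell (log2 difference -0.95 ± 0.15 (SE), adjusted p = 0.017). Of 19 luminal genes Grhl2, a transcription factor of epithelia, and Epcam, an adhesion molecule, rose with log2 differences of 0.75 ± 0.14 (adjusted p = 0.030) and 0.45 ± 0.10 (adjusted p = 0.046), and the keratin Krt19 fell (log2 difference -0.70 ± 0.15 (SE), adjusted p = 0.049), with a median of 0.07 for the list. No luminal gene was called without 7AF, 9AF, 17AF or 18AF.

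Skeletal muscle genes made up the steepest falls and are given as a fact about the libraries. All 39 were lower, 34 of them called, against 3.80% of all genes. The median was -6.75 (and -6.71 with the 4 genes without reads at 30 weeks set at their bound). Myh4, a fast myosin heavy chain, had 48763, 33426 and 12168 normalized counts at 10 weeks and 2.92, 0 and 5.34 at 30 weeks, and Xirp2, a protein of the sarcomere, had 4540, 3667 and 1876 at 10 weeks and no read at 30 weeks, at least 1131-fold lower. Called members numbered between 25 (without 17AF) and 35 (without 8AF) with 1 library left out. All 39 fell in WT too, where 6.66% of all genes were called lower. Further genes of striated muscle, Mylk4, Trdn, Pgam2, Mylk2, Cmya5, Klhl31, Abra and Myom2, were among the 12 largest decreases outside the muscle and seminal vesicle lists among genes with a mean of at least 50. Glycolysis and the tricarboxylic acid cycle had 9 of 36 genes called lower, against 3.80% of all genes, and none higher. With 1 library left out between 1 (without 17AF) and 9 (without 8AF or 18AF) were called, 2 without 7AF, 4 without 16AF and 5 without 9AF. The largest falls were in Aldoa with 13214, 9447 and 6090 normalized counts at 10 weeks and 2075, 1985 and 1970 at 30 weeks (log2 difference -2.18 ± 0.26 (SE), adjusted p = 0.006) and Gapdh with 6575, 5571 and 4053 normalized counts at 10 weeks and 1969, 1971 and 1763 at 30 weeks (log2 difference -1.48 ± 0.18 (SE), adjusted p = 0.006), both of which were highest in 16AF and lowest in 18AF among the younger libraries, the same order as the muscle share. The part of muscle RNA in these results was not tested.

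Chaperones of the endoplasmic reticulum (ER) fold the secreted proteins. Of 30 genes 6 fell and none rose, against 3.80% of all genes called lower, with a median of -0.22 that was -0.088 with quantile normalization and -0.014 without both 7AF and 9AF. Hspa5, the ER Hsp70 chaperone BiP, (chr2:34771970-34777547) had 15832, 13359 and 12518 normalized counts at 10 weeks and 7037, 9600 and 7226 at 30 weeks (log2 difference -0.81 ± 0.17 (SE), adjusted p = 0.045). Creld2, a disulfide isomerase induced by ER stress, had 1677, 1626 and 1629 normalized counts at 10 weeks and 419, 682 and 372 at 30 weeks (log2 difference -1.79 ± 0.22 (SE), adjusted p = 0.006), and Pdia4, another isomerase, had 4328, 4015 and 3608 normalized counts at 10 weeks and 2149, 2456 and 2069 at 30 weeks (log2 difference -0.84 ± 0.12 (SE), adjusted p = 0.012). The groups were apart and 8AF was the highest older library. Hyou1, an ER nucleotide exchange factor, Syvn1, the ubiquitin ligase of ER-associated degradation, and Manf, a secreted ER stress protein, fell with log2 differences of -0.75 ± 0.14 (adjusted p = 0.027), -1.55 ± 0.25 (adjusted p = 0.019) and -0.74 ± 0.10 (adjusted p = 0.009). Called members numbered between 1 (without 7AF or 17AF) and 12 (without 8AF) with 1 library left out, and 2 without both, and Creld2 kept its call in all alternatives whereas that of Hspa5 was lost in 10 of 19. Of 23 genes of the unfolded protein and integrated stress response, the sensor Atf6, the transcription factor Creb3l1 and the asparagine synthetase Asns fell, against 3.80% of all genes, with log2 differences of -0.53 ± 0.09 (adjusted p = 0.020), -2.0 ± 0.42 (adjusted p = 0.044) and -0.54 ± 0.11 (adjusted p = 0.040). None of that list was called without 7AF, 16AF or 17AF, with no mean trend or in the fit of 12 libraries. Xbp1, the factor that drives secretory capacity, had 1626, 1499 and 1324 normalized counts at 10 weeks and 1463, 1545 and 1483 at 30 weeks without a difference beyond its spread (log2 difference 0.02 ± 0.11 (SE), adjusted p = 0.95).

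In WT the ER chaperones had a median of 0.45 with 9 of 30 called higher, against 3.31% of all genes. Hspa5 had 7416, 8530 and 7882 normalized counts in young WT mice and 8616, 10437 and 9623 in older ones on the scale of 12 libraries. The older WT libraries were all above the younger ones, the opposite order to A537T. The difference between the age changes was -1.09 ± 0.22 (SE, adjusted p = 0.16) for Hspa5, -1.65 ± 0.30 (SE, adjusted p = 0.14) for Pdia4 and -2.30 ± 0.39 (SE, adjusted p = 0.13) for Creld2, so none was called. An unadjusted p under 0.05 was found for 20 of the 30, against 1844 of all 15116 genes.

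Mitochondrial mRNAs had negative differences that depended on the test for their call. Elac2 itself (chr11:64979038-65002069) had 173, 164 and 158 normalized counts at 10 weeks and 117, 182 and 111 at 30 weeks (log2 difference -0.30 ± 0.21 (SE), adjusted p = 0.46), with overlapping groups and a difference of 0.15 when 7AF and 9AF were left out. All 6 libraries carry the same substitution, which need not change the level of the RNA, so this value checks no label. Of the 11 mitochondrial mRNAs 10 were lower and 3 were called, against 3.80% of all genes called lower, with a median of -0.53, while DESeq2 called 10 and limma with the seminal vesicle share as a covariate called 7. mt-Nd2, a complex I subunit, had 8528, 7798 and 5121 normalized counts at 10 weeks and 3115, 2537 and 3069 at 30 weeks (log2 difference -1.27 ± 0.21 (SE), adjusted p = 0.019). mt-Nd4l_4, the joint transcript of Nd4l and Nd4, and mt-Nd5 had log2 differences of -0.94 ± 0.19 (adjusted p = 0.039) and -0.90 ± 0.19 (adjusted p = 0.044). All 3 encode subunits of complex I, as do members of the list without a call, such as mt-Nd6. In each of the 3 18AF was the lowest of the younger libraries, and 18AF also had the lowest muscle share of these. The part of muscle RNA in these calls was not tested. mt-Co1, the core subunit of cytochrome oxidase, had 82687, 85025 and 76528 normalized counts at 10 weeks and 59434, 56235 and 62008 at 30 weeks and missed the threshold (log2 difference -0.46 ± 0.20 (SE), adjusted p = 0.25), and mt-Nd6, the only mRNA of the other strand, was the one above 0 (log2 difference 0.29 ± 0.24 (SE), adjusted p = 0.53). The mRNAs together took 2.80%, 2.82% and 2.67% at 10 weeks and 1.94%, 1.80% and 1.85% at 30 weeks (exact permutation p = 0.1), and no mRNA was called without 7AF, 16AF or 17AF. In WT 7 of the 11 fell, against 6.66% of all genes called lower, with a median of -0.84.

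The rRNAs of the mitochondrial ribosome overlapped between ages. mt-Rnr2, the large-subunit rRNA, had 310587, 288964 and 182794 normalized counts at 10 weeks and 244209, 178252 and 232174 at 30 weeks (log2 difference -0.23 ± 0.38 (SE), adjusted p = 0.78) and mt-Rnr1, the small-subunit rRNA, had a log2 difference of -0.28 ± 0.38 (adjusted p = 0.73), and 8AF and 18AF were the lowest libraries for both. Of 20 tested genes of tRNA end processing none was called, with a median of 0.13 and 0 to 1 calls over the alternatives. Nuclear subunits of oxidative phosphorylation were lower in 60 of 77 genes and above 0 in 17, with a median of -0.17, while 50.7% of all genes were above 0. The 1 call, a share near the 1.35% of all genes called higher, was Ndufa1, an accessory subunit of complex I, with 326, 263 and 288 normalized counts at 10 weeks and 546, 438 and 469 at 30 weeks (log2 difference 0.73 ± 0.14 (SE), adjusted p = 0.029). In WT 18 of the 77 fell, against 6.66% of all genes called lower, with a median of -0.66. Skeletal muscle genes took a mean of 8.04% of reads in the younger WT libraries and 3.19% in the younger A537T ones. The part of muscle RNA in the WT values was not tested. Neither the 78 mitochondrial ribosomal proteins, with a median of -0.04, nor the 75 cytosolic ones, with -0.02, had a called gene. Of 40 tested genes against oxidative stress Prdx5, a peroxiredoxin, rose (log2 difference 0.49 ± 0.11 (SE), adjusted p = 0.045), and the microsomal glutathione transferase genes Mgst2 and Mgst3 fell, Mgst2 with 16.9, 33.2 and 59.4 normalized counts at 10 weeks and 0, 1.86 and 2.14 at 30 weeks (log2 difference -4.00 ± 0.71 (SE), adjusted p = 0.024) and Mgst3 with a log2 difference of -0.69 ± 0.14 (adjusted p = 0.040). Over all genes 1.35% were called higher and 3.80% lower, and the counts of this list are near those shares. The calls of Prdx5 and Mgst3 were lost in 10 and 9 of 19 alternatives. Mgst2 was scaled differently in the 2 tables of the 30-week mice, by 0.44 on the log2 scale.

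**Figure D3:**
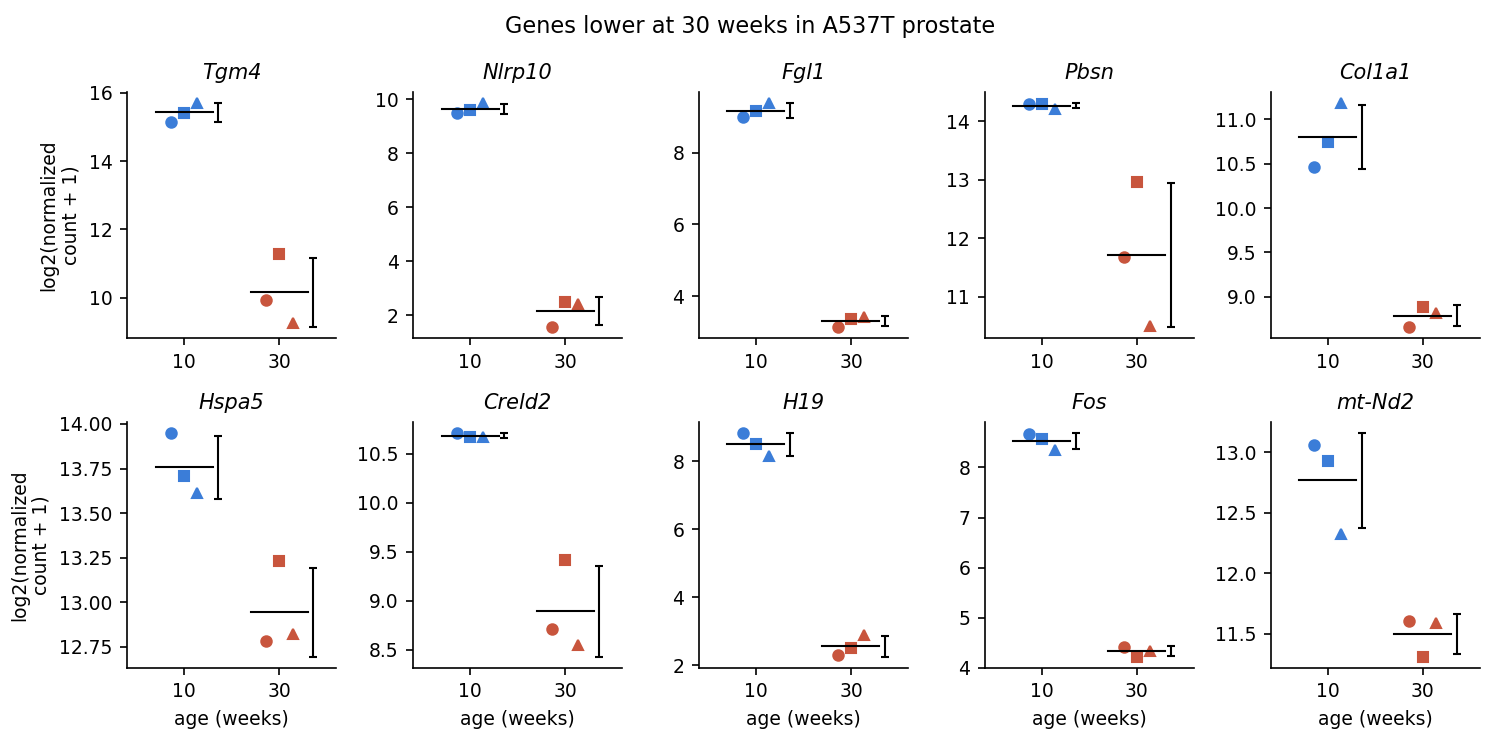
Normalized counts on the log2(count + 1) scale (vertical axes, each panel with its own range) of 10 genes lower at 30 weeks, by age (horizontal axes). Points are single libraries, lines are means and error bars are 1 SD of 3 libraries. For every gene all 3 older libraries lie below all 3 younger ones.

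H19, the imprinted noncoding RNA that is shut down after birth in most tissues, (chr7:142575529-142578143) had 453, 364 and 285 normalized counts at 10 weeks and 3.90, 4.65 and 6.41 at 30 weeks (log2 difference -5.94 ± 0.27 (SE), adjusted p = 1.53e-04), and fell in WT too, with a log2 difference of -5.91 ± 0.57 (SE, adjusted p = 1.12e-04). Among the younger A537T libraries H19 was highest in 16AF and lowest in 18AF, the same order as the muscle share. The skeletal muscle share fell with age in both lines, and the part of muscle RNA in the fall of H19 was not tested. Igfbp5, which binds insulin-like growth factors, had 4602, 4806 and 4386 normalized counts at 10 weeks and 1754, 2504 and 1329 at 30 weeks (log2 difference -1.35 ± 0.22 (SE), adjusted p = 0.019), and Irs2, an adaptor of the insulin receptor, fell (log2 difference -0.75 ± 0.14 (SE), adjusted p = 0.027). These were the 3 called of 17 genes of the IGF family, against 3.80% of all genes called lower, and between 1 (without 7AF, 16AF, 17AF or 18AF) and 4 (without 8AF) were called lower with 1 library left out. Among 18 tested imprinted genes, picked after values were seen, 17 were lower, while 50.7% of all genes were above 0. H19, which is also on the IGF list, Rian, Meg3 and Snrpn were called, against 3.80% of all genes called lower. Rian had 373, 467 and 565 normalized counts at 10 weeks and 119, 82.8 and 125 at 30 weeks (log2 difference -2.10 ± 0.22 (SE), adjusted p = 0.003). Rian and Meg3 are neighbours in one imprinted locus, and Meg3 had 615, 853 and 1112 normalized counts at 10 weeks and 238, 119 and 269 at 30 weeks (log2 difference -2.08 ± 0.34 (SE), adjusted p = 0.019), with a scaling that differed by 0.45 on the log2 scale between the tables of the 30-week mice. Between 2 (without 7AF, 17AF or 18AF) and 5 (without 9AF) imprinted genes were called lower with 1 library left out, and 7 without both 7AF and 9AF. Of 38 tested cell cycle genes 1 was called, below the 3.80% of all genes: Top2a, the topoisomerase of dividing cells, with 375, 273 and 363 normalized counts at 10 weeks and 173, 194 and 174 at 30 weeks (log2 difference -0.89 ± 0.15 (SE), adjusted p = 0.023), and Mki67 had 381, 328 and 314 normalized counts at 10 weeks and 250.4, 177 and 312 at 30 weeks without a call (log2 difference -0.50 ± 0.21 (SE), adjusted p = 0.24). In WT 9 of 39 tested genes of that list fell, against 6.66% of all genes called lower. Its median there was -1.03 against -0.31 in A537T.

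Immediate early genes, clock genes and globins were also examined after their values had been seen. Fos, a transcription factor induced within minutes of a stimulus, (chr12:85473890-85477273) had 405, 381 and 326 normalized counts at 10 weeks and 20.5, 17.7 and 19.2 at 30 weeks (log2 difference -4.20 ± 0.16 (SE), adjusted p = 8.44e-05), and Egr1 and Jun, transcription factors of the same kind, fell with log2 differences of -2.20 ± 0.28 (adjusted p = 0.007) and -1.43 ± 0.25 (adjusted p = 0.024). The younger libraries of Fos were all more than 10-fold above the older ones. Of 20 tested immediate early genes 9 fell and none rose, against 3.80% of all genes called lower. With 1 library left out between 1 (without 17AF) and 10 (without 8AF) fell. Among 15 clock genes Dbp, Per3, Nr1d2 and Tef rose, against 1.35% of all genes, and Arntl fell, against 3.80%. Nr1d2, a repressor of Arntl, had 303, 252 and 344 normalized counts at 10 weeks and 659.6, 594 and 754 at 30 weeks (log2 difference 1.16 ± 0.15 (SE), adjusted p = 0.009), Dbp, an output factor of the clock, had 30.7, 28.5 and 50.3 normalized counts at 10 weeks and 147, 111 and 143 at 30 weeks (log2 difference 1.88 ± 0.26 (SE), adjusted p = 0.010), and Arntl, the core activator, had 211, 192 and 178 normalized counts at 10 weeks and 117, 94.9 and 100.4 at 30 weeks (log2 difference -0.89 ± 0.15 (SE), adjusted p = 0.019). Genes that Arntl activates and Arntl itself peak at opposite times of day, and the labels give no hour of dissection. In WT Arntl fell, with a log2 difference of -0.70 ± 0.16 (SE, adjusted p = 0.018), and Dbp had -0.19 ± 0.33 (SE, adjusted p = 0.78). Without both 7AF and 9AF 1 clock gene was called, and between 2 (without 7AF or 17AF) and 7 (without 8AF) rose with 1 library left out. All 5 erythrocyte genes fell, against 3.80% of all genes called lower. Hba-a1 had 766, 776 and 479.9 normalized counts at 10 weeks and 133, 128 and 162 at 30 weeks (log2 difference -2.22 ± 0.21 (SE), adjusted p = 0.002). Red cell transcripts come from blood in the tissue, and their part in other results was not tested.

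A list of 7 genes was taken from the study's text and is not independent of these samples. Tst, a mitochondrial sulfurtransferase, was called, with 457, 453 and 541 normalized counts at 10 weeks and 220.2, 256 and 169 at 30 weeks (log2 difference -1.18 ± 0.17 (SE), adjusted p = 0.013), and it had a log2 difference of 0.68 ± 0.37 (SE, adjusted p = 0.29) in WT. Gldc, Bcl2, Trp63, Hif3a, Sfpq and Nono had differences between -0.42 and 0.55 without a call.

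Whether the age change differed between A537T and WT was tested directly in the 12 libraries. No gene of 15116 was called (0.0% of all, smallest adjusted p = 0.13), while 1844 had an unadjusted p under 0.05. edgeR also called none, DESeq2 called 401, and 441 were called by limma without 8AF. In WT alone 1507 genes were called (9.97%), 500 higher (3.31%) and 1007 lower (6.66%). Of the 204 genes that rose in A537T 79 also rose in WT (38.7% of the former and 15.8% of the latter), and of the 577 that fell 367 also fell (63.6% and 36.4%). Only 2 were called in opposite directions. The genes with the smallest p in each direction all missed the threshold. They were Irf9, Nr1d2, Glrx, Agps and Ramp1 with a higher age change in A537T, and Hyou1, Creld2, Ace, Gm38910 and Scgb2b27 with a lower one. Irf9 differed by 1.32 ± 0.21 (SE, adjusted p = 0.13) and Hyou1 by -1.20 ± 0.19 (SE, adjusted p = 0.13). For Scgb2b27 both lines rose, A537T by 2.67 and WT by 7.16, a difference of -4.49 ± 0.73 (SE, adjusted p = 0.13).

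**Figure D4:**
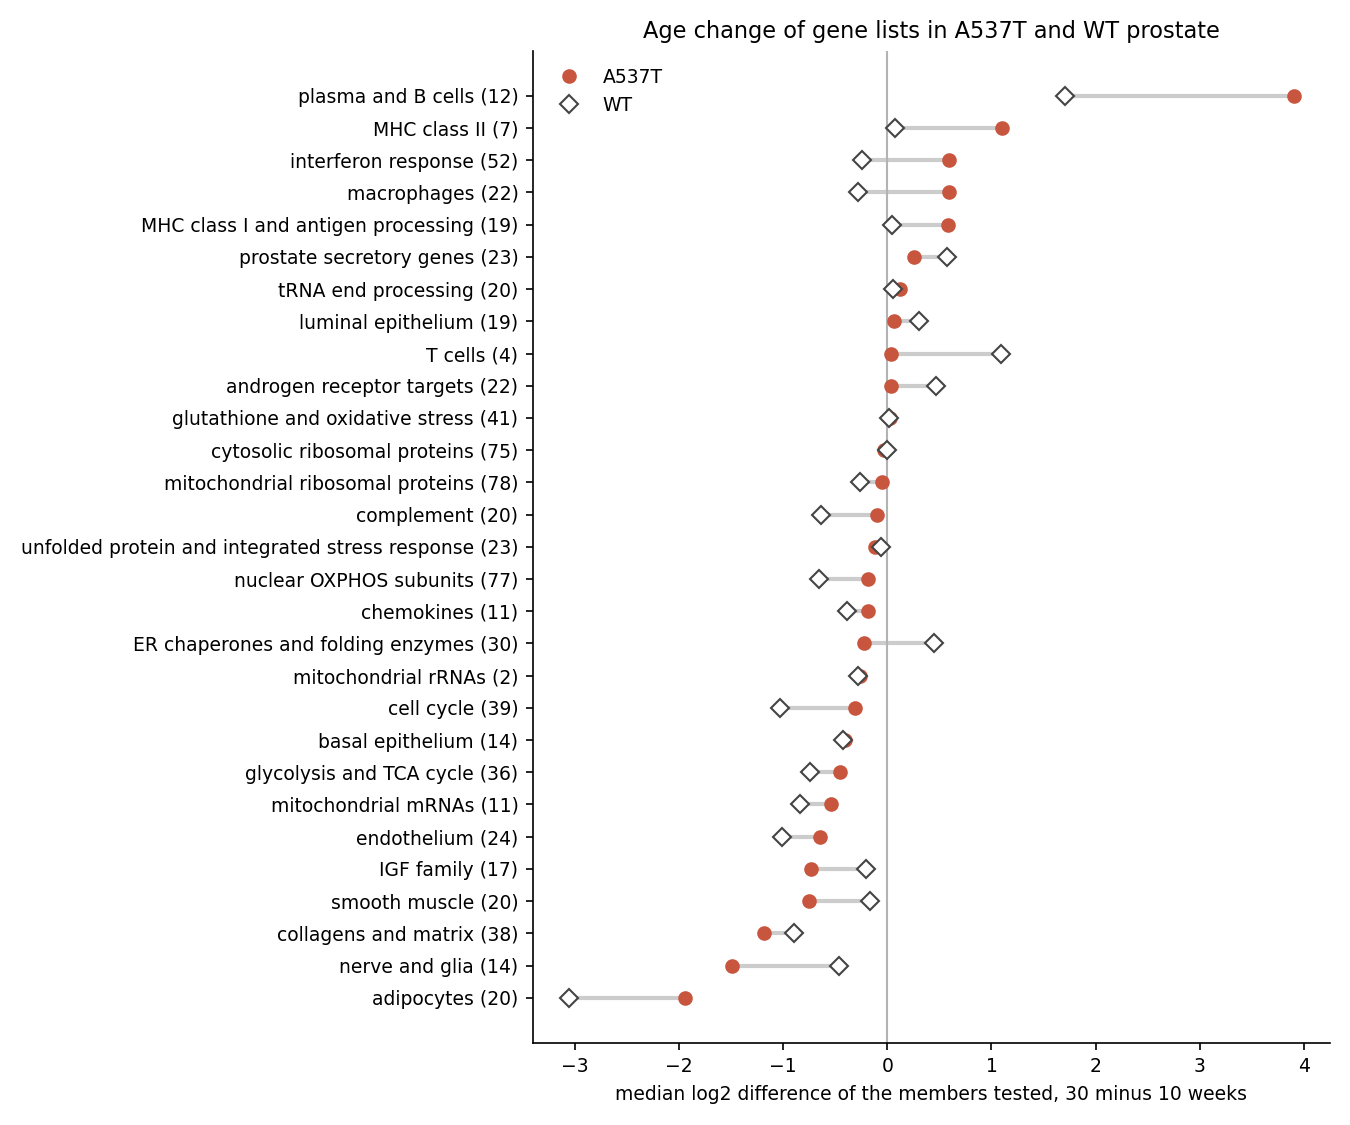
Median log2 difference between 30 and 10 weeks (horizontal axis) of the tested members of 29 gene lists (vertical axis, number tested in parentheses), in A537T (filled circles) and WT (open diamonds), both from 1 fit of 12 libraries. Interferon response, macrophage and ER chaperone lists have medians of opposite sign in the 2 groups, and of the lists drawn, which leave out skeletal muscle, the seminal vesicle and the other lobes, plasma and B cells have the highest median in both and adipocytes the lowest.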

How the data were processed

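RNA was measured by paired-end sequencing on an Illumina NovaSeq in 3 mice per group. As the methods state, the authors trimmed reads with Trim Galore 0.4.1 (cutadapt 1.18), aligned them with STAR 2.7.3a to GRCm38.p6, quantified genes with Salmon and analysed them with DESeq2 1.26. The deposited signal values are normalized counts per gene and library, in 4 tables, each with 1 scaling factor per library as the values show. Further tables hold the authors' own fold changes and s-values between genotypes and were not used here. The column headings carry no sample names: the table names give the line and the age, and columns present in both tables of an age were taken as WT, so a column was assigned to a group but not to a replicate number. As a check, the mean of each gene over all 6 columns of a table was equal to the mean count that the study lists for that line and age, for all 1989 genes compared at 10 weeks and all 1013 at 30 weeks, which identifies the tables and not the columns within them.

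Dividing the deposited values of a library by the step between them gave whole numbers, called recovered reads here (at least 99.95% of values above 0 within 0.01 of a whole number). These may not be raw reads: each WT library stands in 2 tables, and its recovered values there were unequal for 72.8% to 83.5% of genes with at least 10, mostly slightly (median absolute log2 difference 0.0166 to 0.0337), and by over 0.1 for 9.60% to 14.1%. The 6 A537T columns were rescaled together by median-of-ratios factors, genes with a mean of at least 10 were kept, and log2(normalized count + 1) was fitted with limma 3.58.1 (empirical Bayes with a mean trend) and Benjamini-Hochberg adjustment at 0.05. Fold changes on this scale understate those of low genes. The difference from WT was the interaction in a fit of 12 libraries. Counts recovered as whole reads were also tested with edgeR 4.0.16, which called 742 genes, and with DESeq2 1.42.0. Shares of reads were compared by 2-sided exact permutation tests, and their intervals and floors of 3 reads cover counting error only. The limma fit of the 2 ages was also run on simulated counts with known changes in randomly drawn genes. The simulation drew each gene independently, so it says nothing about tissue differences that move many genes together.

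The comparison, the 33 gene lists and 7 added lists were chosen with earlier results of these data known. Named genes were Elac2, mitochondrial transcripts, 7 genes the study names, the 3 most abundant and up to 3 most changed called members of each list, and the 12 largest increases and decreases with a mean of at least 50 outside the muscle and seminal vesicle lists, with 5 in each direction for the difference from WT. Further members named in the text were chosen after their values were seen. Promoters came from RefSeq (GRCm38.p6), matched by symbol.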

Additional observations from a re-analysis of the deposited data

Results flagged for a closer look

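In the 11 genes given here the A537T libraries moved one way between the ages and the WT libraries the opposite way. The scale was common to the 12 libraries. How many of all genes have this pattern is not given here, so 11 is no measure of how rare it is. In A537T alone the groups did not overlap for 27.4% of all genes tested. For the difference of the age changes, 1844 of 15116 genes had an unadjusted p under 0.05 in limma. That difference missed the threshold for each of the 11 in limma, with adjusted p between 0.13 and 0.24. Among genes of the ER, the difference was -1.09 ± 0.22 (SE, adjusted p = 0.16) for Hspa5, -1.65 ± 0.30 (SE, adjusted p = 0.14) for Pdia4, -1.20 ± 0.19 (SE, adjusted p = 0.13) for Hyou1 and -1.69 ± 0.48 (SE, adjusted p = 0.24) for Derl3, a component of ER-associated degradation. Hyou1 had 5993, 5214 and 4506 normalized counts at 10 weeks and 3154, 3199 and 2881 at 30 weeks in A537T, and 3097, 3423 and 2722 at 10 weeks and 3804, 4158 and 4612 at 30 weeks in WT. For Hspa5 all 3 young A537T libraries lay above all others. Ace, which encodes angiotensin-converting enzyme, had a difference of -1.56 ± 0.25 (SE, adjusted p = 0.13), with 3499, 3317 and 3139 normalized counts at 10 weeks and 2111, 2584 and 1808 at 30 weeks in A537T, and 2868, 2056 and 1829 at 10 weeks and 3771, 4549 and 4399 at 30 weeks in WT. Krt19, a keratin of simple epithelia, had -0.97 ± 0.19 (SE, adjusted p = 0.16), and Gm38910, an unnamed gene, had -1.76 ± 0.29 (SE, adjusted p = 0.13). In the other direction, Glrx, a glutaredoxin that reduces protein thiols, had a difference of 2.54 ± 0.47 (SE, adjusted p = 0.14), with 42.9, 39.6 and 47.4 normalized counts at 10 weeks and 130.3, 53.6 and 152 at 30 weeks in A537T, and 85.6, 69.8 and 83.8 at 10 weeks and 26.8, 37.1 and 31.2 at 30 weeks in WT. Ramp1, which partners the receptor for the peptide CGRP, had 2.24 ± 0.37 (SE, adjusted p = 0.13), and Agps, an enzyme of ether lipid synthesis, had 1.19 ± 0.19 (SE, adjusted p = 0.13). For Glrx, Ramp1 and Agps the 30-week libraries 7AF and 9AF, which hold seminal vesicle RNA, were above 8AF, and the part of that RNA was not tested. Igkv14-126, a kappa variable segment, had 6.72 ± 1.49 (SE, adjusted p = 0.17), with 0, 0 and 1.03 normalized counts at 10 weeks and 69.1, 233 and 5.41 at 30 weeks in A537T, and 5.22, 5.30 and 8.82 at 10 weeks and 0.788, 2.25 and 1.95 at 30 weeks in WT. Its values in WT and in the young A537T mice were 8.82 or lower, against a floor of 3 reads per library. Groups of 3 libraries are too small for a test of single libraries that lie far from the rest.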

How the results depend on the processing

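The number of genes changed between 30 and 10 weeks in A537T, 781 as reported, was 505 with a minimum mean of 100, 1571 with DESeq2, 1870 with the seminal vesicle share as a covariate, and between 179 (without 17AF) and 1718 (without 8AF) with 1 library left out, with 288 without 7AF, 452 without 18AF, 504 without 16AF and 512 without 9AF. It stayed within 1.5 times the reported number under the other alternatives: pseudocount 8 (807), minimum mean 1 (873), TMM factors (778), the same total for each library (695), quantile normalization (877), no mean trend (564), edgeR (742), without muscle and seminal vesicle genes (743), the fit of 12 libraries (677) and, added after seeing the data, without 7AF and 9AF (891). The lone 30-week library left in that last fit is assumed to vary like the others. The difference of the age change between A537T and WT had 0 calls, 401 with DESeq2 and between 0 and 441 with 1 library left out, with 441 without 8AF, 8 without 10AF, 3 without 16AF and 1 without 2AF. The cause of these changes was not tested. Of the genes followed, 9 values of genes without a call changed sign. Without 7AF and 9AF these were Elac2 (0.15), Sbp (0.58), B2m (-0.19), Gldc (-1.42) and Bcl2 (-0.21). Gldc was -0.48 without 16AF, Sbp lay between -0.83 (without 8AF) and 0.062 (without 9AF), and Xbp1 was -0.0042 with the same total and lay between -0.064 (without 18AF) and 0.084 (without 16AF). For called genes 1521 values kept direction and side of the threshold and 354 kept direction only. No paired analysis was possible because the columns carry no replicate numbers. Counting error limits values near the floor of 3 reads per library.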
